A study of Mus musculus with 14 samples.

Results

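The genes described here are the translation initiation and elongation factors measured in single cells of adult mouse bone. They were chosen by symbol alone, as every gene whose symbol begins with Eif or Eef and a digit, which gave 61 of the 9558 rows of the expression table. All 61 matched a protein-coding gene of the GENCODE M21 annotation (build GRCm38), and none of their symbols was repeated. The rule also takes in proteins that act on the factors rather than being factors, namely the eIF2 kinases, the eIF4E binding proteins, the eEF2 kinase and the eEF2 methyltransferase gene Eef2kmt. Eif2ak2 and Eef1a2 were not analysed here.

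The cells came from adult C57BL/6 mice of the genotype Prrx1-CreERT;Tomato. The mice carry a tamoxifen-dependent Cre recombinase under the promoter of Prrx1, a limb mesenchyme homeobox gene, and a red reporter that stays on in recombined cells and their descendants. Tamoxifen was given daily over 3 days, with 2 mg for every 30 g of mouse, the bones were freed of marrow and digested, and red cells were sorted and picked singly, giving 14 libraries. All 14 carried the same genotype and treatment and the labels name no animal, so the cells make up 1 sample, and no test between groups was possible. Levels are log2(FPKM + 1) after a normalization that gives every cell the same distribution (FPKM, fragments scaled to transcript length and library size), so a level places a gene among the others of its cell and says nothing of the total RNA there. Detection means a level of at least 1, the equivalent of an FPKM of 1. Spreads are SDs over the 14 cells and describe these cells only.

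Translation starts when the factor eIF2, loaded with GTP and the initiator tRNA, joins the small ribosomal subunit together with eIF1, eIF1A, eIF3 and eIF5, and the complex is brought to the capped end of an mRNA by eIF4E, the scaffold eIF4G and the helicase eIF4A. After start codon selection the large subunit joins with the help of eIF5B. Then eEF1A delivers each aminoacyl-tRNA, its exchange factor eEF1B recharges it with GTP, and eEF2 moves the ribosome along. In bone, cells that lay down matrix make large amounts of collagen and other secreted proteins, and loss of the eIF2 kinase PERK (Eif2ak3) is known to cause skeletal defects.

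The libraries were mixed in the RNA of other cell types. All 8 fibroblast matrix markers were found in all 14 cells, with a list mean of 5.62 in cell 14 to 11.55 in cell 9. Of 5 stromal genes, Ly6a alone was found in all 14. Prrx1, whose promoter drives the Cre, was found in 11 cells at a median of 3.53 and lay below 1 in cells 2, 12 and 14 (0.61, 0.52 and 0.59), and Pdgfra was found in 11 cells. Markers of blood cells were present too. The mean over 6 pan-haematopoietic genes ranged from 0.69 in cell 4 to 8.23 in cell 14, that over 7 measured neutrophil genes from 3.17 in cell 4 to 10.74 in cell 6, and that over 4 measured macrophage genes from 1.11 in cell 4 to 10.71 in cell 14. Cells 6, 8, 11 and 14 held the highest macrophage means, 5.22 or more against 3.72 or less in the other 10 cells. In cells 8 and 11 these means rested mainly on Lyz2 and Cd14, and Cd68 lay at 0.81 and 0.37. Cell 14 was the highest in each of the 4 genes. The counts and medians over the 61 genes are therefore also given without cells 6, 8, 11 and 14. They are given as well without cells 3, 4, 11, 12 and 13. That set was taken over from earlier results of these data and not derived here.

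The translation factors were widely detected. Of the 61 genes, 26 (42.6%) were detected in all 14 cells, against 15.8% of all rows, and 46 (75.4%) in at least 7 cells, against 51.7%. A further 8 were detected in 4 to 6 cells and 7 in 3 cells or fewer, where 26.9% of all rows fell. The median over the 61 genes of their median level was 3.39, against 0.96 over all rows, and 22 genes had a median of 5 or more, a level reached by 12.1% of rows. How the rows of the table were chosen is not stated. Each row reaches at least 1.61 in some cell, so the shares cover only genes seen in these cells. Without cells 11 and 14, and without cells 6, 8, 11 and 14, the same number of genes, 26, was detected in every remaining cell and the median level was 3.39 in both cases. Without cells 3, 4, 11, 12 and 13 it was 28 genes and 2.91.

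Detection in every cell depended on the threshold. At an FPKM of 5 or more, 5 of the 61 genes were present in all 14 cells, or 8.2%, against 6.21% of all rows. These were Eif1, Eef1a1, Eif3k, Eif5a and Eef1b2. At an FPKM of 10 or more the first 4 of them were left, 6.56% against 4.24%. In at least 7 cells, in contrast, 36 genes (59%) reached an FPKM of 5, against 28.7% of rows, and 31 (50.8%) an FPKM of 10, against 21.5%. The factors were thus more often present in at least 7 cells than other rows. The share that was high in every cell was near that of all rows.

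**Figure D1:**
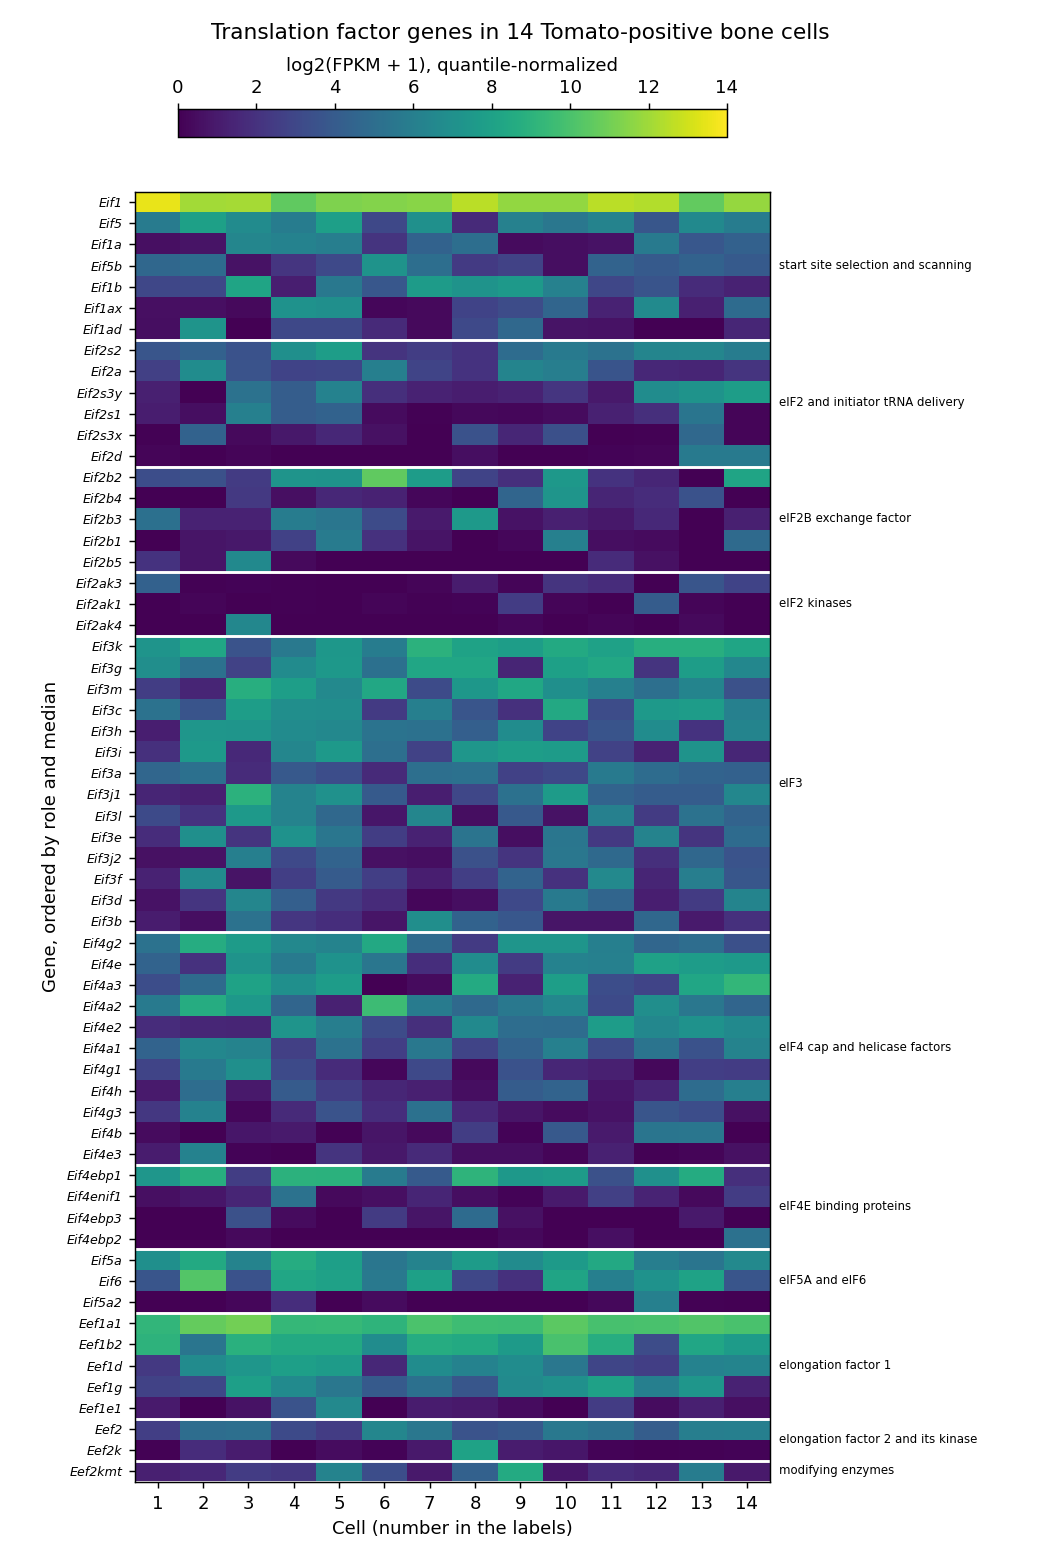
Level of the 61 translation factor genes (rows, grouped by role and ordered by median) in the 14 cells (columns, numbered as in the labels), in log2(FPKM + 1) from dark (0) to yellow (14). Eif1 and Eef1a1 form continuous bright rows, with lowest values of 10.60 and 9.11, and most other rows mix bright and dark cells.

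Eif1, which encodes the small factor that keeps the scanning complex open until a start codon is met, was the highest of the 61 genes in every cell. Its gene lies on chromosome 11 from 100319885 to 100322096 on the plus strand (GRCm38). It ranged from 10.60 in cell 4 to 13.56 in cell 1. The median was 11.76 and the SD 0.79, and its mean was the 4th highest of all symbols in the table. Cells 4 and 13 were the lowest, at 10.60 and 10.66, and cells 1, 8 and 11 the highest. In cell 1 only 2 of the 9558 rows were higher than Eif1, whereas in cells 4 and 13 it held ranks 73 and 70.

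Eef1a1, which encodes the main carrier of aminoacyl-tRNA to the ribosome, was the second highest in 13 of 14 cells. It lies on chromosome 9 from 78478449 to 78489151 on the minus strand. Its levels ran from 9.11 in cell 6 to 11 in cell 3, with a median of 9.95 and an SD of 0.57. Among the 261 rows with a mean of 8 or more, 1 row had a smaller SD than Eef1a1 and 22 had a smaller SD than Eif1, and 27.6% of these rows had an SD below 1. In cell 6, Eif4a2 at 9.58 and Eif2b2 at 10.60 stood above Eef1a1. Eef1a1 has processed pseudogenes, and how the authors' counting treated reads shared with them is not stated, so its level is uncertain to that extent.

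FPKM was taken back from the normalized levels, so its sum was nearly the same in every cell, 646250 to 646278. A gene's share of it follows from its rank in the cell and is not a share of the cell's own RNA. Of this sum, all 61 genes together made up between 0.98% in cell 4 and 2.20% in cell 1, the median being 1.28%. Eif1 alone accounted for 0.24% to 1.87% and Eef1a1 for 0.085% to 0.32%. Within the 61 genes, Eif1 held 23.7% of the summed FPKM in cell 13 and 85.0% in cell 1, and Eif1 and Eef1a1 together 34.5% in cell 4 and 89.2% in cell 1. In cells 1, 8, 11 and 12 Eif1 made up more of the sum than the other 60 genes together.

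**Figure D2:**
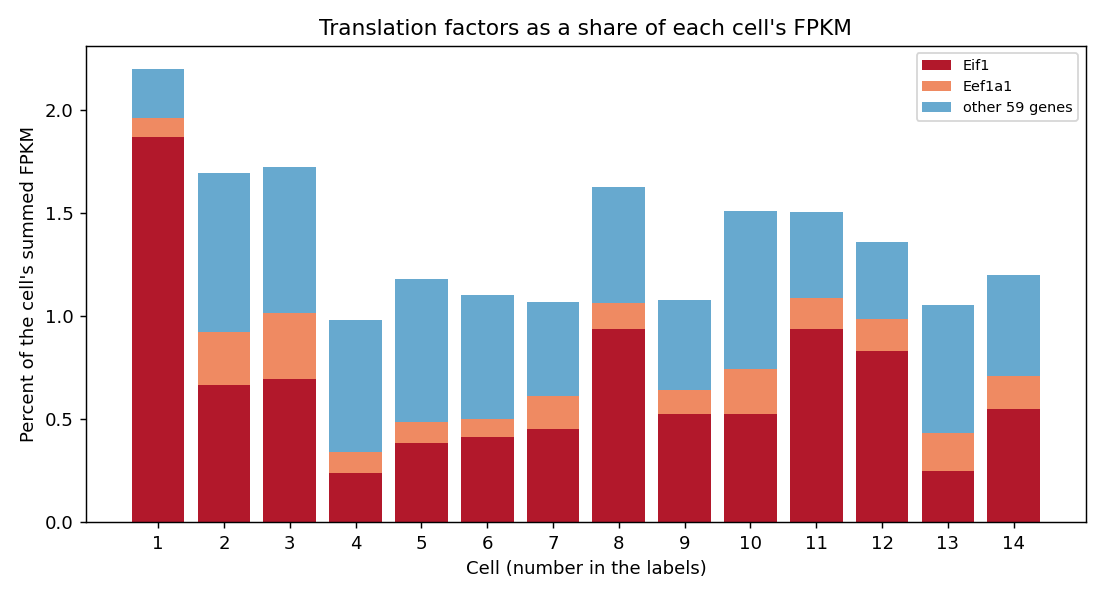
Summed FPKM of Eif1, Eef1a1 and the other 59 genes as a percent of the summed FPKM of each cell (bars start at 0, cells numbered as in the labels). FPKM was taken back from the normalized levels, so the shares follow from ranks within the cell. Cell 1 has the tallest bar, at 2.20%, of which Eif1 makes up 1.87%, and cell 4 the lowest, at 0.98%.

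The start regions of 48 of the 61 genes were found in the RefSeq promoter table (GRCm38.p6), which holds 250 bases before and 50 bases after each annotated start. Eif1, Eef1a1 and Eef2, the gene of the translocation factor, share a short run of the TATA kind close to the annotated start. The runs are shown because these genes have the highest levels (Eif1, Eef1a1) and low spread over the cells (all 3). Capitals mark the run, and each window holds 30 bases read 5′ to 3′ on the strand of the gene.
Eif1 (chr11:100319945-100319974, plus strand): acaggggcggcTATATAAgtgaatacaggc
Eef1a1 (chr9:78481683-78481712, minus strand): ggggagaacggTATATAAgtgcggcagtcg
Eef2 (chr10:81176604-81176633, plus strand): ccggcgtcgaccTATAAAaggccgggcgtt

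The run begins 7 bases after the annotated start in Eif1, 23 bases after it in Eef1a1 and 15 bases before it in Eef2. The letters TATAAA or TATATAA were looked for after these sequences had been read. They occurred on the gene strand in 6 of the 48 genes (12.5%), against 6.64% of the 7368 genes of the table with a promoter entry and 9.49% of all 32851 promoters. The other 3 genes were Eif3f, Eif2s1 and Eif3b, with the run farther upstream than in Eef2. These 3 were lower and more variable, with medians of 2.60, 0.82 and 1.89 and SDs of 2.02, 2.14 and 2.06. Eif5a, with an SD of 1.10, had a promoter entry without the run. On both strands together the counts were 7 genes (14.6%), 10.3% and 15.1%. The letters CCGGAAG, also chosen after reading, were found on either strand in 17 of the 48 genes (35.4%), against 20.1% of genes with a row and 8.86% of all promoters. A match is a run of letters and not a shown binding site.

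The group of scanning and start site selection has 7 genes. Each was found in at least 7 cells, and 3 of them in all 14. Eif5, the GTPase activator of eIF2, had a median of 6.01, from 1.67 in cell 8 to 7.98 in cell 2. Eif1b, the close relative of Eif1, was found in all 14 cells, at a median of 3.73. Cells 3, 7 and 9 were the highest, at 8.20, 7.66 and 7.60, and cell 4 was the lowest, at 1.16. Eif1 exceeded Eif1b in all 14 cells, by 3.86 log2 units in cell 7 and 10.56 in cell 1. The longest open reading frames of Eif1 and Eif1b are 81.3% identical over 342 bases.

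Eif1a and Eif1ax encode versions of eIF1A, which holds the scanning complex on the mRNA, and were each detected in 9 cells. Eif1ax, on the X chromosome, had a median of 2.07 and was highest in cells 4, 5 and 12, at 7.12, 6.95 and 6.68. Eif1a had a median of 4.05, and cells 3, 4 and 5 were the highest, at 6.44, 6.21 and 6.00. Each was the higher of the pair in 7 cells, and 6 cells had both. In cells 1 and 2, which count for Eif1a, both lay below 1 (0.59 against 0.55, and 0.73 against 0.57). Neither form was the higher throughout. The difference, Eif1a minus Eif1ax, ran from -4.08 in cell 10 to 6.10 in cell 3. Eif5b, the subunit joining factor, was found in 12 cells, its median was 3.96, and cell 6 was the highest at 7.17. Its exons share 1643 bases with the opposite-strand gene Rev1, and reads there cannot be told apart where strand was not used. Eif1ad was detected in 7 cells and was high in cell 2, at 7.27.

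The subunits of eIF2 were at unequal levels. Eif2s2, which encodes the beta subunit, was detected in all 14 cells, from 2.02 in cell 8 to 7.77 in cell 5, and its median was 5.11. Eif2s1, which encodes the alpha subunit phosphorylated by the stress kinases, was found in 7 cells and had a median of 0.82. Cells 3, 13, 5 and 4 were the highest, at 6.08, 5.42, 4.38 and 4.14, while 7 cells lay below 1. Eif2s1 was below Eif2s2 in 13 of 14 cells, by a median of 3.11, with cell 3 the exception.

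The gamma subunit has a copy on each sex chromosome. Eif2s3y, the Y-linked copy, was found in 12 cells. Its median was 2.01 and its SD 2.73, among the 5 largest of the genes detected in at least 7 cells. Cells 14, 13, 12, 5, 3 and 4 held 7.79, 7.19, 6.82, 6.23, 5.28 and 4.15. Another 7 cells lay between 0.94 and 2.17, and cell 2 was at 0. Eif2s3x, the X-linked copy, was found in 6 cells, had a median of 0.75 and was highest in cells 13, 2 and 8, at 4.71, 4.41 and 3.54. Both were detected together in 5 cells, and Eif2s3y was the higher in 10. Their open reading frames are 86.3% identical over 1419 bases.

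Both copies have a pyrimidine run of at least 8 bases at the annotated start, as do Eif3f and Eif3l of eIF3. They are printed because mRNAs of the translation machinery are known for a terminal oligopyrimidine tract, a C followed by further pyrimidines at the capped end, through which mTOR signalling controls them. Capitals mark the longest such run starting within 10 bases of the annotated start.
Eif2s3x (chrX:94212632-94212661, minus strand): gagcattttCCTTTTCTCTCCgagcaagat
Eif2s3y (chrY:1010587-1010616, plus strand): ccacagccaCTTCCTTCTTTCgtgagcaag
Eif3f (chr7:108934404-108934433, plus strand): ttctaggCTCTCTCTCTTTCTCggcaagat
Eif3l (chr15:79075217-79075246, plus strand): tcttcttccgCTCTCTCCCacgggcttctg

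A C followed by at least 4 pyrimidines, on the gene strand, began within 10 bases of the start in 17 of the 48 genes (35.4%, exact Clopper-Pearson 95% interval 22.2% to 50.5%), against 37.3% of genes with a row and 30.7% of all promoters. By this measure the share of the factors was near that of other genes. Runs of at least 8 bases were found in 9 (18.8%), against 10.4% of genes with a row. The 17 genes with the shorter run had a median level of 1.89, and 3 of them were detected in all 14 cells. The 31 genes without it had a median of 3.96, and 16 of them were detected in all 14. Annotated starts can lie some bases away from the start used in these cells.

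The remaining eIF2 factors were lower or sparse. Eif2a, an alternative initiator tRNA factor, was present in all 14 cells at a median of 2.90, and was highest in cells 2, 9, 6 and 10, at 6.80, 6.33, 6.06 and 5.98. Eif2d was detected in cells 13 and 14 alone, at 5.77 and 5.74, and lay at 0.51 or less in the others. Genes of eIF2B, the exchange factor that recharges eIF2 with GTP, had a median of medians of 1.36. Of the 5, 3 were found in 7 cells or more and 0 in every cell.

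Eif2b2 was the highest of these and had one of the largest spreads of all the factors, with an SD of 3.24. Cells 6, 14, 7, 10, 4 and 5 held 10.60, 8.18, 7.75, 7.48, 7.26 and 7.17, the other 8 cells lay at 3.49 or less, and cell 13 was at 0. Of the other subunits, Eif2b4 and Eif2b1 were both highest in cell 10 (7.28 and 6.08), Eif2b3 in cell 8 (7.53) and Eif2b5 in cell 3 (6.66). Cell 5 held both Eif2b1 and Eif2b3 at high levels (5.80 and 5.51). Cell 10 had the highest median over the 5 genes, at 6.08, followed by cell 5 at 5.51, and cells 8 and 13 had a median of 0.

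The 3 measured eIF2 kinases, which shut down initiation under stress, were at or near 0 in most cells. Eif2ak4, which encodes the amino acid sensor GCN2, was detected in cell 3 alone, at 6.5. Eif2ak1, the haem-regulated kinase, was detected in cells 12 and 9, at 4.07 and 2.48. Eif2ak3, which encodes PERK of the endoplasmic reticulum, was detected in 6 cells, at most 4.34 in cell 1. Their medians were 0, 0.10 and 0.19. The exons of Eif2ak1 share 487 bases with the opposite-strand gene Aimp2.

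eIF3 is the large scaffold on the small ribosomal subunit. Each of its 14 genes was found in 7 or more cells, and 8 of them in every cell. Eif3k was the highest, with a median of 8.04 and a range from 3.58 in cell 3 to 9.0 in cell 7. Cell 3 stood apart from the other 13 cells, which held Eif3k at 5.65 or more. Eif3g followed with a median of 6.81 (1.44 in cell 9 to 8.38 in cell 11), Eif3m with 6.47 (1.45 in cell 2 to 8.79 in cell 3) and Eif3c with 6.06 (1.93 in cell 9 to 8.47 in cell 10).

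Eif3a, the largest subunit, had a median of 4.41 and the smallest SD of the complex, 1.31, from 1.65 in cell 6 to 5.69 in cell 11. Eif3i had the largest, 2.72, with 8 cells at 5 or more, 4 cells below 2 and cells 7 and 11 at 2.77. Eif3b, which encodes another core subunit, was the lowest of the complex, with a median of 1.89 and 10 cells with detection. The subunits assemble into 1 complex, and their measured levels showed little correlation over the cells. The median Spearman correlation over the 91 pairs of eIF3 genes was 0.064, against 0.0066 over all pairs of the 4932 symbols detected in at least 7 cells. For cytosolic ribosomal proteins it was 0.32 over 3486 pairs. Those genes also had higher levels, with a median of medians of 9.32 against 4.34 for eIF3. The part of level in the difference was not tested. These correlations are over 14 cells that share their libraries and a common normalization, and are given as descriptions.

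Among the higher eIF3 correlations was that of Eif3j1 and Eif3j2, near-identical genes whose open reading frames match at 99.7% of 786 bases. Eif3j1, with a median of 4.28, and Eif3j2, with 3.27, had a Spearman correlation of 0.79 over the cells. Both were highest in cells 3 and 10, at 9.01 and 7.71 for Eif3j1 and 6.03 and 5.57 for Eif3j2. Reads from these copies could have been split between them, so their separate levels are uncertain. Eif3d followed Eif3j1 at 0.84 and was at 6.40 in cell 3 and 5.74 in cell 10. The lowest eIF3 value was -0.71, for Eif3g and Eif3h.

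**Figure D3:**
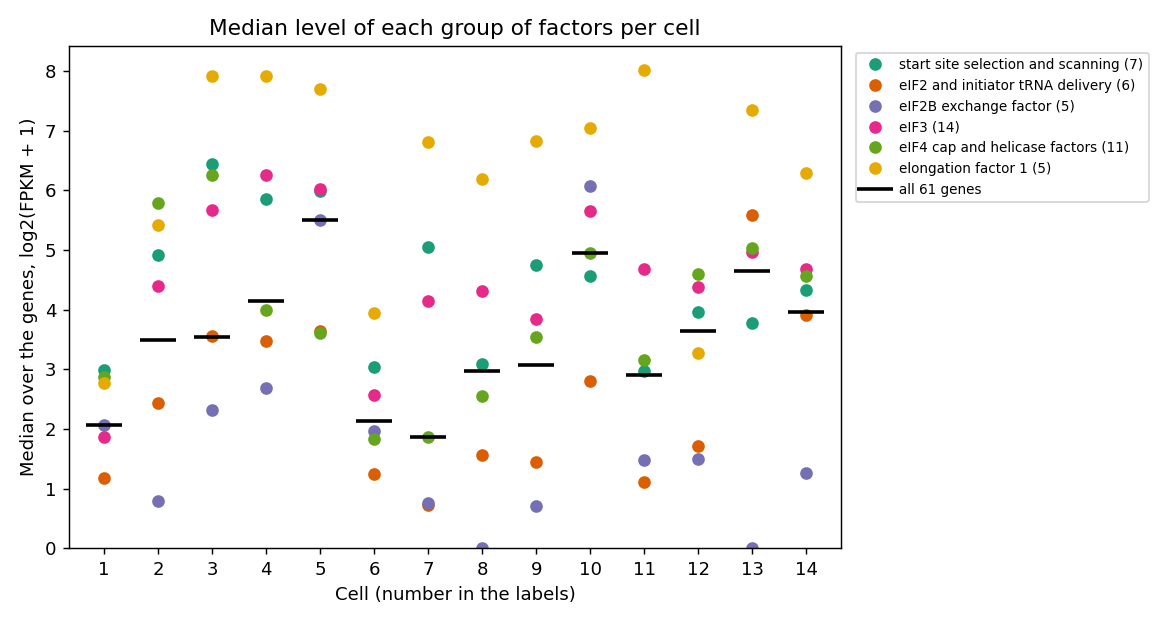
Median level over the genes of 6 groups of factors (coloured points, number of genes in brackets) and over all 61 genes (black bars) in each cell, in log2(FPKM + 1). The elongation factor 1 genes are the highest of the 6 groups in every cell but 1, 2 and 12. There scanning, eIF3 or eIF4 factors lie above them. The eIF2B median ranges from 0 in cells 8 and 13 to 6.08 in cell 10.

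The cap and helicase factors number 11, of which 9 were present in 7 cells or more and 5 in each cell. Eif4e, which binds the mRNA cap, had a median of 6.15, from 1.86 in cell 7 and 1.99 in cell 2 to 8.03 in cell 12. Eif4e2, a cap-binding relative that acts in repression, had a median of 5.5, with cell 11 the highest at 7.76. Eif4e was the higher in 10 of 14 cells. Eif4e3 was detected in 5 cells and was high in cell 2, at 6.2, where Eif4e was low. Cell 7 was low in both Eif4e and Eif4e2, at 1.86 and 1.87.

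The scaffold genes were unequal. Eif4g2, which encodes a scaffold without an eIF4E binding site, was present in each cell, its median being 6.18, from 2.37 in cell 8 to 8.68 in cell 2. Eif4g1, the classical scaffold, was found in 11 cells, had a median of 2.54 and reached 6.96 in cell 3. Eif4g2 was above Eif4g1 in all 14 cells, by 0.74 in cell 3 to 8.21 in cell 6. Eif4g3 had a median of 1.76 and was found in 9 cells. The FPKM unit divides by length although the library kit captures 3' ends, so long genes such as these are understated against short ones.

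The helicase gene Eif4a2 exceeded its paralogue Eif4a1 in 11 of 14 cells. Eif4a1 had a median of 4.88, from 2.58 in cell 6 to 6.46 in cell 2. Eif4a2 had a median of 5.70, from 1.26 in cell 5 to 9.58 in cell 6. The difference, Eif4a1 minus Eif4a2, was -1.29 in the median, -7.01 in cell 6 and 4.04 in cell 5. The exceptions were cells 5, 11 and 14. Both genes host small nucleolar RNAs that share annotated exonic bases with them. Examples are Snora81 in Eif4a2, with 178 bases, and Gm24029 and Gm22988 in Eif4a1, with 143 and 144. In Eif4a2, 194 exonic bases also overlap the opposite-strand gene Rfc4.

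Eif4a3, the helicase that marks exon junctions and acts in mRNA decay rather than in scanning, had the largest SD of the 46 genes detected in at least 7 cells, 3.28. Its median was 5.91. Cells 14, 8, 13 and 3 were the highest, at 9.29, 8.53, 8.30 and 8.07, 7 cells in all reached 5, and cells 7 and 6 were the lowest, at 0.41 and 0. The accessory factors of the helicase were lower. Eif4h had a median of 2.01 and Eif4b of 0.84, with 6 cells with detection of Eif4b and maxima of 5.48 and 5.45 in cells 13 and 12.

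Among the eIF4E binding proteins, which block cap-dependent initiation until mTOR phosphorylates them, Eif4ebp1 was the only one present in every cell. Its median of 7.43 was the 5th highest of the 61 genes, with a range from 1.88 in cell 14 to 9.08 in cell 8 and an SD of 2.56. The lowest cells were 14, 3, 11 and 7, at 1.88, 2.52, 3.47 and 3.98, and the other 10 lay at 5.84 or more. Eif4ebp2 was detected in cell 14 alone, at 5.21, the cell lowest in Eif4ebp1. Eif4ebp3 was detected in 3 cells, at most 4.91 in cell 8, and Eif4enif1, the nuclear transporter of eIF4E, in 6 cells.

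Within a cell, Eif4ebp1 was above Eif4e in 10 of 14 cells, by a median of 1.62. The difference ran from -5.71 in cell 14 to 6.80 in cell 2. The 4 cells with more Eif4e were 3, 11, 12 and 14. Cells 11 and 14 also held the highest pan-haematopoietic means, 7.19 and 8.23, while those of cells 3 and 12 were 2.59 and 2.52. The part of blood cell RNA in the difference was not tested.

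**Figure D4:**
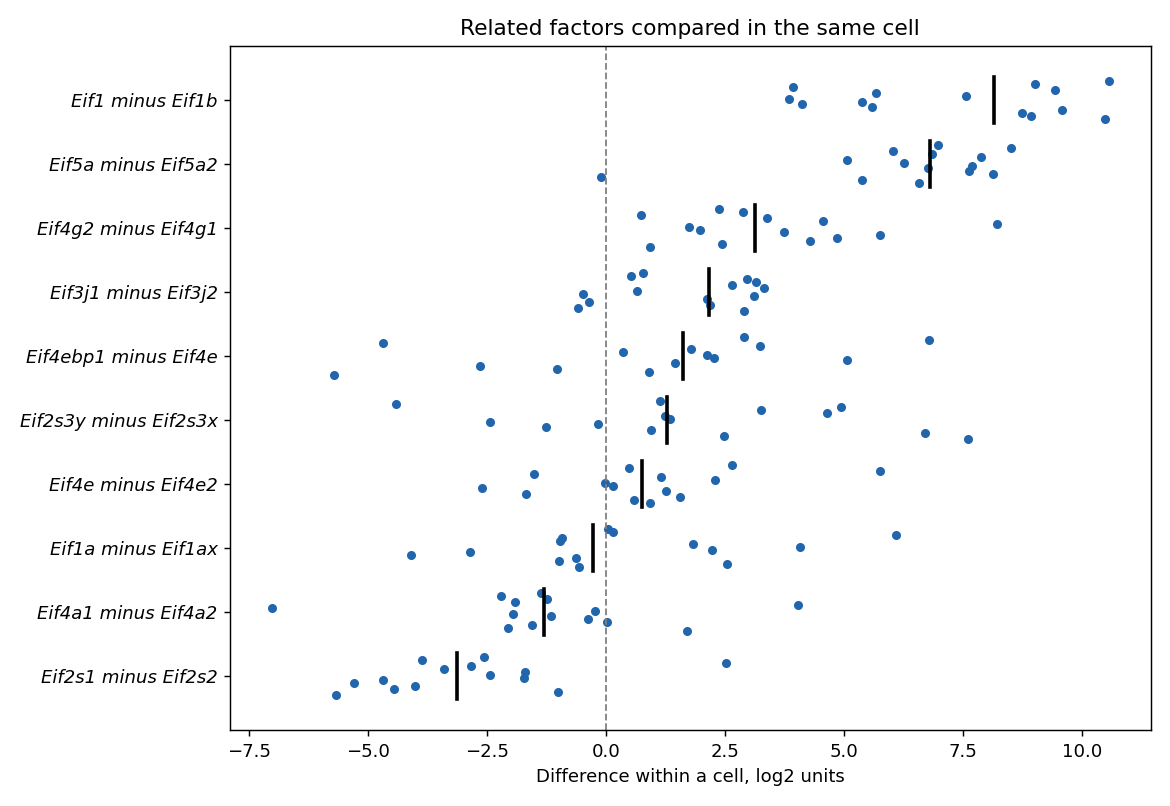
Difference in level between related factors within the same cell, in log2 units (blue points, 1 per cell, offset by cell number, black bars at the median). Points to the right of the dashed line at 0 are cells in which the first named gene is higher, as in all 14 cells for Eif1 against Eif1b and Eif4g2 against Eif4g1, and points to the left are cells in which the second is higher, as in 13 cells for Eif2s1 against Eif2s2.

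Eif5a, the factor that carries the modified lysine hypusine and helps the ribosome through difficult stretches such as prolines, was among the steadiest genes. Its levels ran from 5.47 in cell 13 to 8.67 in cell 4, with a median of 6.87 and an SD of 1.10. All 14 cells held it at 5 or more, which among the 61 genes was otherwise the case only for Eif1 and Eef1a1. Its paralogue Eif5a2 was detected in cells 12 and 4 alone, at 6.07 and 1.83. In cell 12 Eif5a was at 5.98, close to its paralogue, and in the other 13 cells Eif5a was higher. Their reading frames are 72.7% identical. The enzymes that make hypusine were sparser than their substrate. Dhps was found in 11 cells and Dohh in 3, and their medians were 2.09 and 0.39.

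Eif6, which keeps free large ribosomal subunits from joining, had a median of 6.59 and a wide range, from 1.92 in cell 9 to 10.26 in cell 2. Cells 8, 3, 1 and 14 were also low, at 2.97, 3.53, 3.67 and 3.72, and the other 9 cells held 5.68 or more.

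Elongation factor 1 genes had the highest levels of the groups with 4 or more genes. Of 5 measured, 4 were detected in all 14 cells. Eef1b2, a nucleotide exchange subunit, had a median of 8.51, from 3.27 in cell 12 and 5.42 in cell 2 to 9.99 in cell 10, and the other 12 cells lay at 6.81 or more. Its companions in the exchange complex were lower and more variable. Eef1d had a median of 6.24, with 1.58 in cell 6, and Eef1g had 5.81, with 1.32 in cell 14. Eef1b2 exceeded each of them in 13 of 14 cells, and Eef1d and Eef1g were each the higher in 7.

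Eef1e1, which encodes a scaffold protein of the tRNA synthetase complex rather than an elongation factor, was detected in 6 cells, at most 6.59 in cell 5. Eef2 was present in each of the 14 cells. Its median was 5.05 and its SD 1.31, from 2.50 in cell 5 to 6.42 in cell 6. Eef1a1 was above Eef2 in all 14 cells, by 2.69 in cell 6 to 6.87 in cell 5 and by 5.71 in the median. Eef2k, whose kinase halts elongation by phosphorylating eEF2, was detected in 4 cells and high in cell 8 alone, at 8.05, where Eef2 was at 3.59. Its next value was 1.77 in cell 2. Eef2kmt was found in 11 cells at a median of 2.02, with cell 9 the highest at 8.56.

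The spread of the factors over the cells was large, but at means of 2 to 8 it was close to that of rows of like mean level. The highest and lowest value of a gene differed by 5 or more log2 units in 51 of the 61 genes. The same count was not made over all rows. The median SD was 2.06, against 1.75 over all rows, and 32 genes had an SD of 2 or more, which 36.1% of all rows had. As SD follows the level, rows were compared within bands of mean level. Below a mean of 2, the factors were the more variable, with a median SD of 1.77 for 18 factors and 1.53 for 5403 rows, and 4 of the 18 lay below the median of the rows. Between means of 2 and 4, the median SD was 2.06 for 17 factors and 2.17 for 2527 rows. Between 4 and 6 it was 2.16 for 18 factors and 2.27 for 966 rows, and between 6 and 8 it was 2.05 for 6 factors and 2.00 for 401 rows. On a scale of rank percentiles within a cell the order was the other way round from that over all levels, with a median SD of 17.0 points for the factors and 20.1 for all rows.

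**Figure D5:**
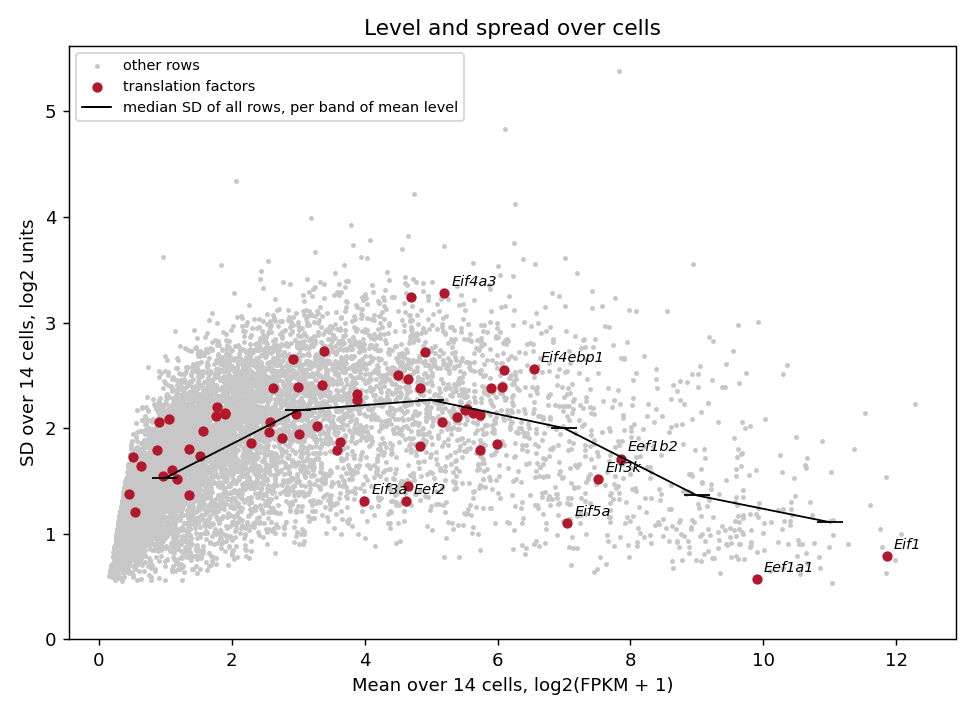
Mean and SD over the 14 cells of every row (grey) and of the 61 translation factor genes (red), in log2 units, with the median SD of all rows per band of mean level (black). Most factors lie near the black line, and Eef1a1 (SD 0.57), Eif1 (0.79), Eif5a (1.10), Eif3a (1.31) and Eef2 (1.31) lie below it.

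The cells differed in how many of the factors they held. Between 40 (cell 7) and 50 (cells 4 and 5) of the 61 genes were detected per cell, while the number of all rows detected per cell was the same in each, 5066 of 9558 or 53.0%, because of the equal distribution. The median over the 61 genes was highest in cells 5, 10, 13 and 4, at 5.51, 4.95, 4.65 and 4.15, and lowest in cells 7, 1 and 6, at 1.87, 2.07 and 2.13. Cell 1, with the highest Eif1 of all, thus had one of the lowest medians of the family, and 12 of its 61 genes were at 5 or more, against 32 in cell 5. Cells 6, 8, 11 and 14 had medians of 2.13 to 3.96, within the range of 1.87 to 5.51 of the other 10 cells. In cells 3, 4, 11, 12 and 13 they were 2.91 to 4.65, within the range of the other 9 cells, also 1.87 to 5.51.

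The median of the family in a cell was set beside the means of 17 gene lists in the same cell. Over all 14 cells, its strongest relation was with 5 stromal genes (Prrx1, Pdgfra, Lepr, Cxcl12 and Ly6a), with a Pearson r of -0.69 and a Spearman rho of -0.79 over 14 cells, and -0.71 and -0.80 over 12 cells without cells 7 and 9, those farthest from the median of the list. Cells 9 and 7 had the highest stromal means, 8.0 and 7.57, and family medians of 3.08 and 1.87, and cells 14, 10 and 5 had the lowest, 2.58, 3.00 and 3.14, with family medians of 3.96, 4.95 and 5.51. With the ribosomal proteins r was 0.55 and rho 0.47, and 0.48 and 0.32 without cells 6 and 8. With the 2 hypusine enzymes r was 0.45 and rho 0.50, and 0.54 and 0.57 without cells 4 and 9. Some lists moved little when 2 cells were left out, such as the fibroblast matrix genes, with a rho of -0.42 in both cases. The values of others moved more. For osteoblast genes r was 0.12 and rho -0.27, and without cells 10 and 13 they were -0.71 and -0.84, the latter beyond that of the stromal genes. For macrophage genes r was -0.22 and rho -0.57, and -0.62 and -0.73 without cells 8 and 14. For pan-haematopoietic genes r was -0.29 and rho -0.52, and -0.64 and -0.65 without cells 11 and 14. The points share their libraries and a normalization in which one gene can only rank higher where others rank lower. Cells 4 and 5, with the most factors detected, had the lowest immediate early means, 2.76 and 4.06 against 6.12 to 8.29 in the other cells. They also had the lowest means of pan-haematopoietic (0.69 and 1.28, others 1.41 or more), neutrophil (3.17 and 4.45, others 4.84 or more) and endothelial genes (0.75 and 1.03, others 1.09 or more). The part of these in the count was not tested.

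The other genes of translation were described from lists. Of the 86 cytosolic ribosomal protein genes with a row, 83 were present in every cell. Their median of medians was 9.32, well above the 3.39 of the factors, and a median SD of 1.0. The poly(A) binding protein gene Pabpc1, whose product contacts eIF4G, was present in every cell, its median being 7.54 (5.77 in cell 4 to 9.92 in cell 3), and its inhibitor Paip2 had 7.53. Paip2b had a median of 2.80, Pabpc4 1.39 and Paip1 0.30, and they were found in 13, 10 and 2 cells.

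Termination and recycling factors had a median of medians of 3.59. Each of the 5 measured was found in 7 cells or more and 1, Mcts1, in every cell, at a median of 7.02. Its partner in reinitiation, Denr, had a median of 4.70, the stop codon factor genes Etf1 and Gspt1 had 3.59 and 2.52, and the recycling gene Abce1 had 1.42. Mitochondrial translation factors were sparser. Of 6 measured, 2 reached 7 cells and 0 every cell, the highest median being 1.45 for Tsfm and the lowest 0.28 for Mrrf. The list of cytosolic tRNA synthetases held 20 measured genes, among them Aimp1 and Aimp2, which encode scaffold proteins of the synthetase complex. Of the 20, 14 were found in 7 cells or more and 3 in every cell, from a median of 5.64 for Nars down to 0 for Farsb.

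Of the integrated stress response, which runs from the eIF2 kinases to the transcription factor ATF4, 9 genes were measured, of which 5 were found in 7 cells or more and 2 in every cell. Atf4 had a median of 7.81 and an SD of 0.78, from 6.26 in cell 4 to 8.62 in cell 14, and Ppp1r15a, whose product guides the phosphatase that restores eIF2 and which was the other gene found in every cell, had a median of 6.79. The lowest of the list was Chac1, found in 2 cells. Atf4 is controlled mainly in its translation, and mRNA levels do not show eIF2 phosphorylation. For mTOR and MNK signalling 9 genes were measured, 3 reached 7 cells, and the activator Rheb alone in all 14, with a median of 6.13. Mlst8, the lowest, was found in 2 cells.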

How the data were processed

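The submitters' processing notes name TopHat2, Cufflinks and the build GRCm38, with no version. Although the authors named the deposited table for FPKM, it holds log2 values, taken here as log2(FPKM + 1), whose distribution is equal in all cells. Neither step is recorded in the labels. Sequencing depth is unknown, as these values carry no counts. All 14 value columns matched a sample by title, and 0 were left over. Summaries over 14 cells were computed in Python 3.11.15 with pandas 2.3.3 and scipy 1.17.1, and the summary script was checked on simulated data. For the 16 rows that repeat a symbol the first row was used. Overlaps and exonic lengths came from GENCODE M21, start regions from RefSeq (GRCm38.p6). No test was possible with 1 group. The members, lists and alternatives were chosen with earlier results of these data known. Members named in full were 15 chosen for their role, and the 5 at each end of the medians and SDs.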

Additional observations from a re-analysis of the deposited data

How the results depend on the processing

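With 1 group and no test, alternatives show how far a value moves, and leaving out cells 3, 4, 11, 12 and 13 was added after the data had been seen. Genes detected in all 14 cells numbered 42 (68.9%) above 0, 5 at an FPKM of 5 and 4 at an FPKM of 10, against 26. The shares of all rows were 46% above 0, 6.21% at an FPKM of 5 and 4.24% at an FPKM of 10, against 15.8%. The median SD was 17.0 points as rank percentiles, 1.21 with a pseudocount of 10 and 1.10 as the median absolute deviation, against 2.06. Over all rows it was 20.1, 0.87 and 0.59. The division by length could be undone only roughly, by multiplying the normalized FPKM by the GENCODE exonic length in kilobases. The cells then no longer share one distribution. This raised the median of all rows from 0.96 to 2.36 and that of the factors from 3.39 to 5.18. Group medians were then 6.73 for scanning factors (from 4.45), 3.86 for eIF2 (2.07), 0.37 for its kinases (0.07) and 6.64 for eIF3 (4.54). They were 6.66 for cap and helicase factors (from 3.80), 1.90 for eIF4E binding proteins (0.90), 8.93 for elongation factor 1 (6.83) and 4.32 for elongation factor 2 (3.05). A pseudocount of 10 gave 3.83 for eIF2, 3.56 for eIF2B, 3.33 for the eIF2 kinases, 3.46 for eIF4E binding proteins and 4.47 for elongation factor 2, against 3.45 for all rows. Means in place of medians gave 0.72 for the kinases and 2.19 for the eIF4E binding proteins. Elongation factor 2 lay at the 55.6th rank percentile. Pyrimidine runs at the start were found in 18.8% of genes for at least 8 bases and in 20.8% within 3 bases, against 35.4%. Among all genes with a row the shares were 10.4% and 15.1%, against 37.3%. Of 52 detection counts of named genes, 17 moved by over 1.5 times, 8 above 0 and 9 at an FPKM of 10. Taking the highest row of a repeated symbol, or protein-coding genes only, could change nothing, since the 61 genes include no repeated symbol and are all protein-coding. No paired analysis was possible because the samples form 1 group.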

Other observations

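The spread of Eif2s3y was set beside the other Y-linked genes with a row. Ddx3y, Kdm5d and Uty had medians of 2.37, 0.99 and 1.98, and each of the 14 cells had at least 1 of the 4 genes detected, from 1 in cell 2 to 4 in cells 7 and 12. Uty was highest in cell 6 (9.04), Ddx3y in cell 3 (7.36) and Kdm5d in cell 14 (6.99), so the highest cell differed from gene to gene. The labels do not give the sex of the mice.

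Rows detected in all 14 cells were ranked by their Spearman correlation with 3 of the factors over the 14 cells, among 1505 other rows, as a description of these libraries. For Eef1a1 the most alike were the ubiquitin gene Ubb (0.91), Map3k12 (0.84) and the ribosomal protein genes Rps26 (0.80), Rps15a (0.79) and Rps27rt (0.79). For Eif4a1 they were Rps27 (0.75), Eef1a1 (0.75), Dlgap4 (0.75), Ppp1r15a (0.74) and Nfkbia (0.73), and for Eif1 the histone gene H3f3b (0.75), Lrrc41 (0.69), St6galnac6 (0.67), Emd (0.66) and Dnaja1 (0.65).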
